A study of Bos taurus with 96 samples.

Results

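Endothelial cells line the inside of every blood vessel, and the genes described here are the ones most often used to see them in RNA from whole tissue. The 10 genes were chosen by name as endothelial cell genes: PECAM1, CDH5, CLDN5, ESAM and EMCN at the cell surface and its junctions, the receptors KDR, TEK, TIE1 and ROBO4, and VWF. A probe was assigned to a gene through its bovine RefSeq accession or through the probe tables that accompany the study. By this rule 9 of the 10 genes were measured, with 18 probes in all, out of 10653 genes that could be named on the array. For VWF no probe could be named without conflict, as set out below, and 21445 of the 34227 probes could be named at all.

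Adipose tissue and muscle are both dense in capillaries. Cadherin 5 (CDH5) and claudin 5 (CLDN5) join neighbouring endothelial cells, and the vascular endothelial growth factor receptor KDR and the angiopoietin receptor TEK carry the growth and survival signals of the vessel wall. In RNA from a whole tissue piece, a lower signal of these genes can come from fewer endothelial cells or from less of the RNA in each, and these cannot be told apart here.

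Angus, Hereford and Wagyu x Angus steers gave the fat and muscle. The fat came from animals on pasture after weaning that were killed at about 26 months of age after 259 days in a feedlot, with 12 arrays (4 per breed) each of subcutaneous fat over the rump (SC), intermuscular fat (Inter), kidney fat (Kid), omental fat (Omen) and intramuscular fat dissected from the longissimus dorsi (IMF). The longissimus dorsi muscle itself (LD), which holds intramuscular fat in place, was read on 24 arrays from animals on pasture (8 per breed) and on 12 from animals given supplement after weaning (4 per breed). The labels give 259 feedlot days for every sample, whereas by the study's methods some LD samples, of both diets, came from steers killed earlier. The labels do not mark which, so the younger age and shorter feeding of these animals cannot be told apart from tissue or diet in any comparison with LD. The depots came from the same steers, but the labels do not tie arrays to animals, so an animal can be present in both groups of a comparison and p-values measure the spread between arrays only.

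Each RNA was hybridised alone to an array of the bovine 4x44K one colour Agilent design, 4 arrays to a slide. Values are the log2 processed signal minus the 75th percentile of the same array, so that 0 is the level of the 75th percentile probe and a difference of 1 is a doubling. A gene is represented by its brightest probe. All 9 main probes were well above background on all 96 arrays. Groups were compared with limma, the Benjamini-Hochberg adjustment of p-values covered all 34227 probes, and a gene is called where the adjusted p was under 0.05.

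Signal over background and scan day differed between tissues. The share of probes well above background was 66.2 to 96.5% per array, and the correlation between arrays of a group was 0.939 to 0.99. An Omen Angus array (replicate 4, slide 10, 96.5%) had 5528 outlier spots. An IMF Wagyu x Angus array (replicate 3, slide 8, 92%) had 2647, and its mean of the endothelial genes, 1.17, was the lowest in IMF. The 12 IMF arrays were all scanned on day 3, the 12 Inter arrays on day 2 and 11 of the 12 SC arrays on day 1, so scan day is nearly the same split as these depots. Of the Omen arrays 10 were scanned on day 3 and 2 on day 2, so Omen too shares almost no day with SC. The Kid arrays fell on day 1 (5 arrays), day 2 (6) and day 3 (1). The 10 measured myofibre genes were all called higher in IMF than in SC, where 6 of them were well above background on every array, and their summed level, in multiples of the 75th percentile, was 1050 to 3060 in IMF, 4040 to 5770 in LD on pasture and 1.32 to 2.41 in SC. Among the 12 Inter arrays, 2 stood apart with sums of 80.5 and 856.

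PECAM1, an adhesion molecule at the contacts between endothelial cells, gave the lowest, median and highest values of 3.44, 3.67 and 4.19 in SC. In Omen these were 3.07, 3.53 and 4.38, and in Inter 2.99, 3.23 and 3.7. In IMF they were 2.54, 3.15 and 3.86, and in Kid 2.17, 3.09 and 3.77. The muscle was far lower, with 0.78, 1.45 and 2.15 on pasture and 1.22, 1.75 and 2.34 with supplement. By median the order was SC, Omen, Inter, IMF, Kid and LD. Neighbours in this order did not pass the test for SC and Omen, Inter and IMF, or IMF and Kid, while Omen and Inter differed (adjusted p = 0.0422 by limma). On the second PECAM1 probe, by contrast, Omen was called lower than SC, at -0.57 (adjusted p = 0.000968 by limma). Omen and Inter did not differ by the test on that probe.

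CDH5, the cadherin of endothelial junctions, ran from 1.97 to 2.88 in SC with a median of 2.33. Its median was 2.21 in Kid, 2.16 in Omen and 2.05 in Inter, with ranges of 1.69 to 2.76, 1.81 to 3.11 and 1.74 to 2.79. In IMF the values were 0.88, 1.38 and 1.79. None of the neighbours among SC, Kid, Omen and Inter differed by the test on this probe (another CDH5 probe did, as given with the other probes), and IMF had a lower median than each. LD gave 0.01, 0.74 and 1.7 on pasture and 0.86, 1.36 and 1.67 with supplement, so the supplement arrays covered much the same range as IMF.

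CLDN5, the tight junction claudin of endothelium, gave lowest, median and highest values of 5.16, 5.64 and 6.19 in SC. They were 5.06, 5.56 and 6.17 in Omen and 3.76, 5.42 and 6.1 in Kid. Kid was the most spread of the fat depots for this gene. Inter gave 4.87, 5.14 and 5.7 and IMF 3.79, 4.63 and 5.05. LD gave 2.77, 3.47 and 4.04 on pasture and 3.13, 3.87 and 4.36 with supplement.

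ESAM, an endothelial adhesion molecule of the immunoglobulin family, had its highest medians in Kid (2.68) and Omen (2.67), followed by Inter (2.5) and SC (2.41). The ranges of these 4 depots overlapped almost wholly, from 1.53 to 3.56 in Kid, 2.16 to 3.28 in Omen, 1.58 to 2.85 in Inter and 1.96 to 2.95 in SC. IMF gave 1.19, 1.51 and 1.93, and all 12 of its arrays were below every SC array. LD gave 0.16, 0.71 and 1.55 on pasture and 0.71, 1.2 and 1.61 with supplement.

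EMCN, the sialomucin endomucin of capillaries and veins, was highest in Omen, with values of 1.6, 2.04 and 2.53. Kid gave 0.72, 1.75 and 2.27 and Inter 1.2, 1.52 and 1.98. IMF gave 0.69, 1.49 and 2.34 and SC 1.08, 1.4 and 2.16. Unlike the other junction and surface genes, EMCN in IMF covered the whole range of SC. LD gave 0.12, 0.53 and 1.31 on pasture and 0.01, 0.9 and 1.3 with supplement.

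KDR, the main signalling receptor for vascular endothelial growth factor, had another order. Its values were 0.48, 1.1 and 1.54 in Kid, 0.36, 1.06 and 1.72 in Omen and -0.18, 0.81 and 1.39 in Inter. In IMF they were -0.94, 0.03 and 0.73 and in SC -0.51, -0.1 and 0.26. Every Kid and every Omen array was above every SC array. Kid and Omen, Omen and Inter, and IMF and SC did not differ as neighbours, while Inter and IMF did. LD gave -1.48, -0.73 and 0.01 on pasture and -0.8, -0.24 and 0.25 with supplement.

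TEK, the receptor of the angiopoietins, was again lowest in SC among the fat depots. The values were 0.55, 1.94 and 2.52 in Kid, 1.31, 1.82 and 2.58 in Omen and 1.06, 1.65 and 2.09 in Inter. IMF gave 0.9, 1.47 and 1.89 and SC 0.91, 1.2 and 1.66. No neighbours in this order differed by the test. LD was lower, with -0.71, -0.1 and 0.46 on pasture and -0.14, 0.15 and 0.56 with supplement. The highest supplement array just passed the lowest Kid array, at 0.55.

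TIE1, the orphan receptor that pairs with TEK, varied least between the fat depots. The values were -1.57, -1.06 and -0.73 in SC and -1.6, -1.18 and -0.65 in Omen. They were -1.85, -1.32 and -0.74 in IMF, -1.83, -1.53 and -1.14 in Inter and -2.34, -1.53 and -0.92 in Kid. LD gave -3.31, -2.61 and -1.51 on pasture and -3.21, -2.05 and -1.35 with supplement, and its highest arrays reached into the range of fat.

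ROBO4, the roundabout receptor of endothelium that stabilises vessels, was highest in SC with 4, 4.31 and 4.7. Kid gave 3.18, 3.95 and 4.59, Omen 3.32, 3.87 and 4.53 and Inter 3.29, 3.66 and 4.17. IMF gave 2.43, 3.1 and 3.57 and did not reach the lowest SC array. LD gave 1.31, 1.99 and 2.78 on pasture and 1.9, 2.51 and 3.07 with supplement.

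**Figure D1:**
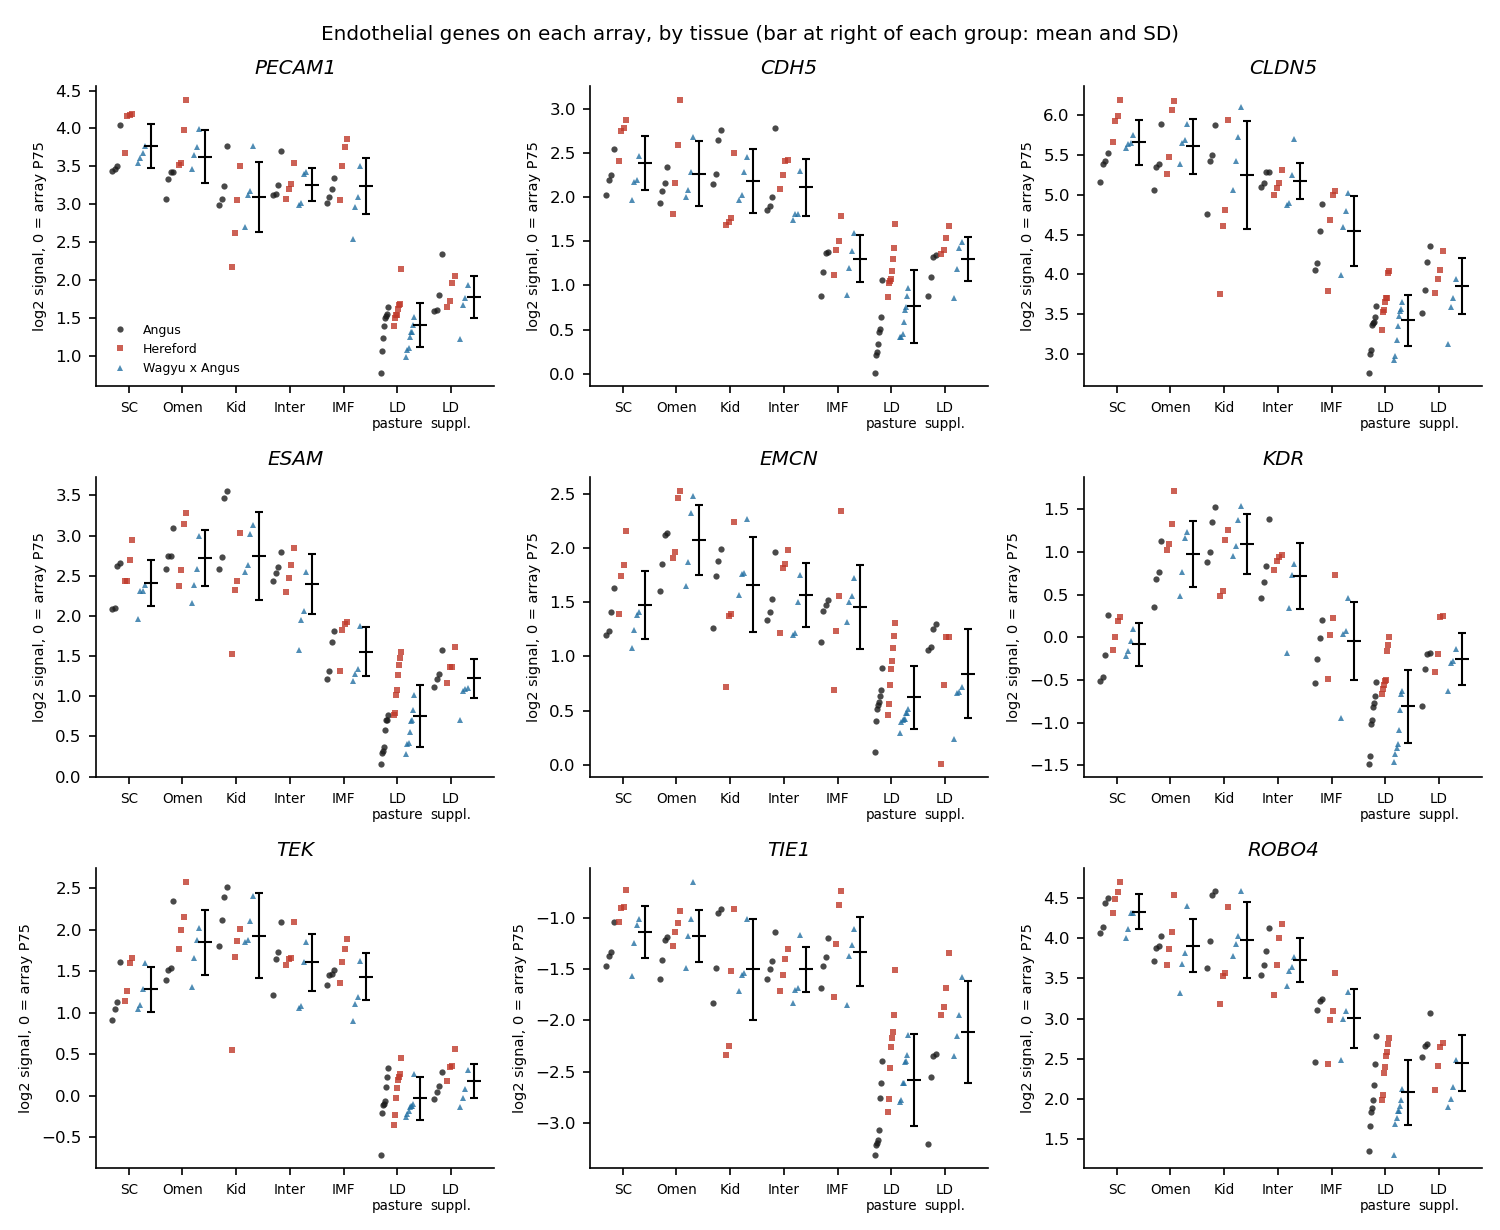
Each panel plots 1 endothelial gene on all 96 arrays (y axis, log2 signal with 0 at the 75th percentile of the array) by tissue (x axis), with breed as colour and shape and the mean and SD of each tissue as a bar. LD is lowest in every panel by median, IMF is below SC for CDH5, CLDN5, ESAM and ROBO4 without overlap, and KDR is higher in Omen and Kid than on any SC array.

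Depot, tested over the 60 fat arrays with breed in the fit, was called for 9 of the 9 genes and for 87.2% of all probes. The adjusted p by limma ran from 8.62e-12 for KDR to 0.0198 for TIE1. With such a share of probes called, the sizes and directions of the pairwise differences say more than the number called.

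In IMF, the marbling fat of the muscle, 5 of the 9 endothelial genes were lower than in SC and none was higher. Across all probes 64.2% were called, 33% lower and 31.2% higher. ROBO4 fell by 1.32 ± 0.12 (SE, 12 arrays against 12, adjusted p = 1.53e-09 by limma), which is a 2.5-fold difference. CLDN5 fell by 1.11 ± 0.15 (adjusted p = 5.71e-07), CDH5 by 1.08 ± 0.12 (adjusted p = 2.12e-08) and ESAM by 0.86 ± 0.12 (adjusted p = 1.07e-06). For these 4 genes the IMF and SC arrays did not overlap, as for 14.9% of all probes. PECAM1 fell by 0.52 ± 0.13 (adjusted p = 0.0015). The second ROBO4 probe rose in IMF, by 1.3, so the direction of ROBO4 holds for its brighter probe. Of the 3 other CDH5 probes 1 was lower without overlap, by 1.31, and the other 2 overlapped and were not called, at -0.2 and -0.16.

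The other 3 receptors and EMCN did not pass the test. KDR differed between IMF and SC by 0.04 ± 0.15 (adjusted p = 0.82), TEK by 0.15 ± 0.11 (adjusted p = 0.239) and TIE1 by -0.19 ± 0.12 (adjusted p = 0.172). EMCN differed by -0.02 ± 0.14 (adjusted p = 0.908). Within each of the 3 breeds alone, with 4 arrays against 4, the median difference of the 9 genes was -0.44 for Angus, -0.51 for Hereford and -0.62 for Wagyu x Angus. Within scan day 3, against a single SC array, it was -0.21, with 6 genes lower and 3 higher.

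With scan day as a block, which rests on the single SC array scanned on day 3, 2 of the 5 genes kept a call, ROBO4 and CDH5, and the called probes went from 21957 to 6847 of 34227. CDH5 then differed by -0.89 (adjusted p = 0.0387), and over all 96 arrays with scan day in the fit CDH5, CLDN5, ESAM and ROBO4 were called. Genes of adipocytes and macrophages also fell in IMF, with 8 of 8 and 8 of 8 called, and their part and that of the myofibre RNA in the lower endothelial values was not tested.

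In Omen and Kid, the depots of the abdominal cavity, the receptors KDR and TEK were higher than in SC. Omen was higher than SC for 3 of the 9 genes and lower for 1, where 45.7% of all probes were called, 20.5% higher and 25.2% lower. KDR rose by 1.06 ± 0.13 (adjusted p = 7.07e-07 by limma, 12 against 12), with no overlap between the arrays, as for 3.97% of all probes. EMCN rose by 0.6 ± 0.13 (adjusted p = 0.00048) and TEK by 0.56 ± 0.13 (adjusted p = 0.00138). ROBO4 fell by 0.42 ± 0.11 (adjusted p = 0.00388). ESAM was near the threshold with 0.31 ± 0.13 (adjusted p = 0.0503). The dimmer second KDR probe was not called higher in Omen or Kid, at 0.25 and 0.24.

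Of these, KDR alone was called with scan day as a block, beside 1511 probes in all, where its difference was 1.28 (adjusted p = 0.0224) against a single SC array. Within scan day 3 the median difference of the 9 genes was 0.32, with 8 higher and 1 lower. Over all 96 arrays with scan day in the fit, KDR, TEK, EMCN and ESAM were called higher in Omen, and ROBO4, at -0.32, was not (adjusted p = 0.171).

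Kid was higher than SC for 2 genes and lower for 1, where 41.7% of all probes were called, 19.4% higher and 22.2% lower. KDR rose by 1.17 ± 0.12 (adjusted p = 9.5e-08 by limma), again with no overlap, as for 3.52% of all probes, and TEK rose by 0.65 ± 0.16 (adjusted p = 0.00248). PECAM1 fell by 0.67 ± 0.16 (adjusted p = 0.00124). Within scan day 1, with 5 Kid and 11 SC arrays, KDR differed by 1.24, TEK by 0.74 and PECAM1 by -0.57. The 4 Kid Hereford arrays ran from 1.32 to 2.63 in the mean of the 9 genes, and the median difference from SC was -0.79 in Hereford against 0.2 in Angus and -0.02 in Wagyu x Angus. The replicate block, which carries no animal, added ROBO4 and TIE1 to the lower genes, at -0.39 (adjusted p = 0.0262) and -0.4 (adjusted p = 0.0219).

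Inter, the fat between muscles, had 2 genes higher and 4 lower than SC, where 48.8% of all probes were called, 21.6% higher and 27.2% lower. KDR rose by 0.8 ± 0.13 (adjusted p = 2.47e-05 by limma) and TEK by 0.32 ± 0.12 (adjusted p = 0.0321). ROBO4 fell by 0.6 ± 0.1 (adjusted p = 3.33e-05), PECAM1 by 0.51 ± 0.11 (adjusted p = 0.000368), CLDN5 by 0.48 ± 0.1 (adjusted p = 0.000468) and TIE1 by 0.36 ± 0.1 (adjusted p = 0.0039). No Inter gene was free of overlap with SC, as were 3.75% of all probes. All Inter arrays share a scan day that no SC array has, so a block for scan day could not be estimated on these arrays. Without the 2 Inter arrays of high myofibre level, an alternative chosen after seeing the data, 5 genes were called and TEK was not, at 0.3 (adjusted p = 0.0679). TEK also lost its call when any 1 of 7 arrays was left out (adjusted p 0.0509 to 0.0595 by limma). With slide as a random block 1 gene was called higher and 4 lower. Over all 96 arrays with scan day in the fit, KDR, ROBO4 and PECAM1 were called and TIE1 turned to 0.19 (adjusted p = 0.384).

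**Figure D2:**
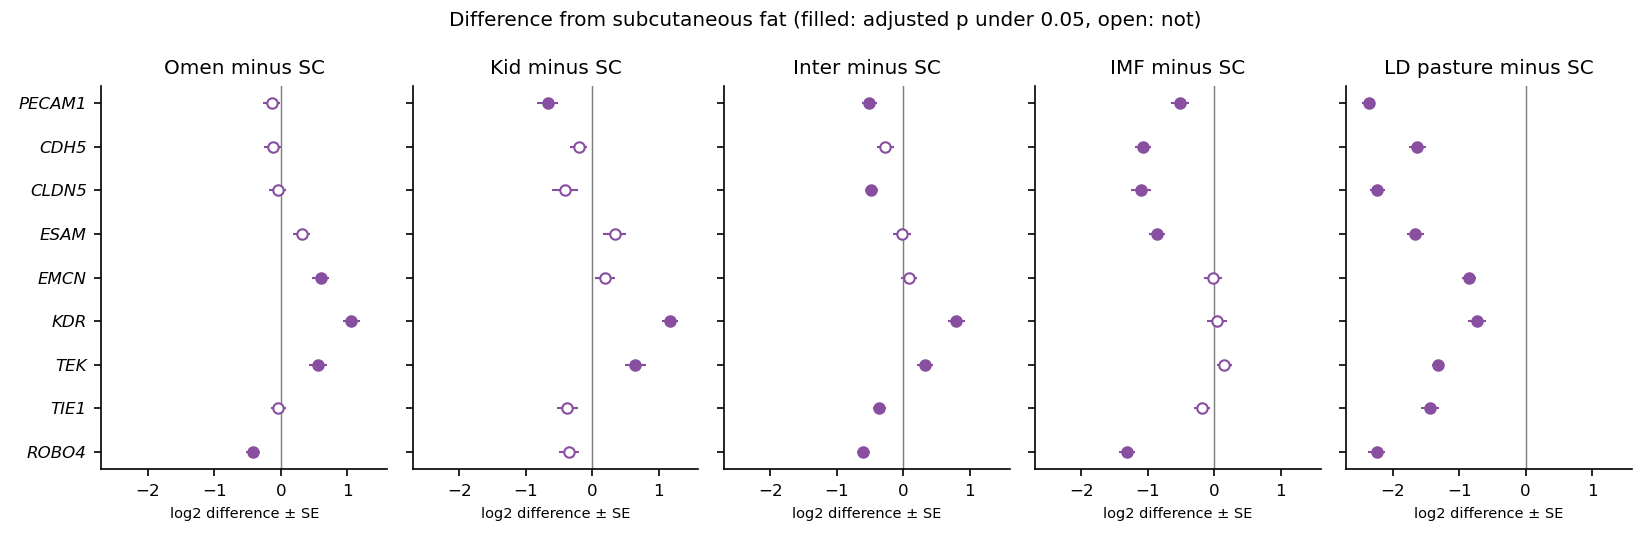
The difference from SC on the log2 scale (x axis, ± SE) is shown for the 9 endothelial genes (y axis) in each depot and in LD on pasture, with filled points where the adjusted p was under 0.05. KDR and TEK lie right of 0 in Omen, Kid and Inter, whereas ROBO4 lies left of 0 in all 5 panels and is filled in all but Kid.

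All these comparisons share the 12 SC arrays, so a value particular to SC enters each of them. Between depots other than SC, IMF was lower than Omen for 8 genes, than Kid for 6 and than Inter for 5, where 56.2%, 55.8% and 62.7% of all probes were called and 28.4%, 27.4% and 30% were lower. ROBO4 is counted here by its main probe only. Its second probe was higher in IMF, with means of -1.22 in IMF, -2.67 in Omen, -2.51 in Kid and -2.99 in Inter. Adipocyte genes were also called lower in IMF than in each of these depots, except FABP4 against Kid and Inter. Their part was not tested. CDH5, CLDN5 and ESAM did not overlap between IMF and Omen, as for 8.44% of all probes, and the differences were -0.97 ± 0.13, -1.06 ± 0.16 and -1.17 ± 0.13. KDR was lower in IMF by 1.02 ± 0.17 against Omen, a difference of 2.03-fold, with an adjusted p of 1.67e-05 by limma. IMF and Omen share scan day 3 for 12 and 10 arrays, and within that day 9 of the 9 genes were lower in IMF, by a median of -0.93.

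Inter, Kid and Omen were also compared with each other. No gene differed between Inter and Kid by limma, 1 had an unadjusted p under 0.05, and 15.4% of all probes were called. CLDN5, EMCN, PECAM1 and TIE1 were lower in Inter than in Omen by 0.33 to 0.51, where 13.6% of all probes were called, 7.69% lower. Within scan day 2, with 12 Inter arrays of all breeds and 2 Omen arrays of Angus, the median difference of the 9 genes was -0.08. Between Kid and Omen, PECAM1 was called, at -0.53 ± 0.16 (adjusted p = 0.0363), beside 12.1% of all probes called and 5.78% called lower. PECAM1 was called on 1 of its 2 probes both between Kid and Omen and between Inter and Omen.

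The unlike change of KDR and PECAM1, a pair chosen after their values were seen, can be read within each array. Their log2 difference, set to 0 at the SC mean, was -0.32 to 0.19 in SC with a median of 0.02. The medians were 0.54 in IMF, 1.2 in Omen, 1.4 in Inter and 1.75 in Kid, and 1.66 and 1.87 in LD on pasture and with supplement. The lowest Kid array, at 1.33, was far above the highest SC array. These are descriptions of how 2 probes changed unequally and carry no test. The brighter KDR probe was used, and the second was not called higher than SC in Inter, Kid or Omen.

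**Figure D3:**
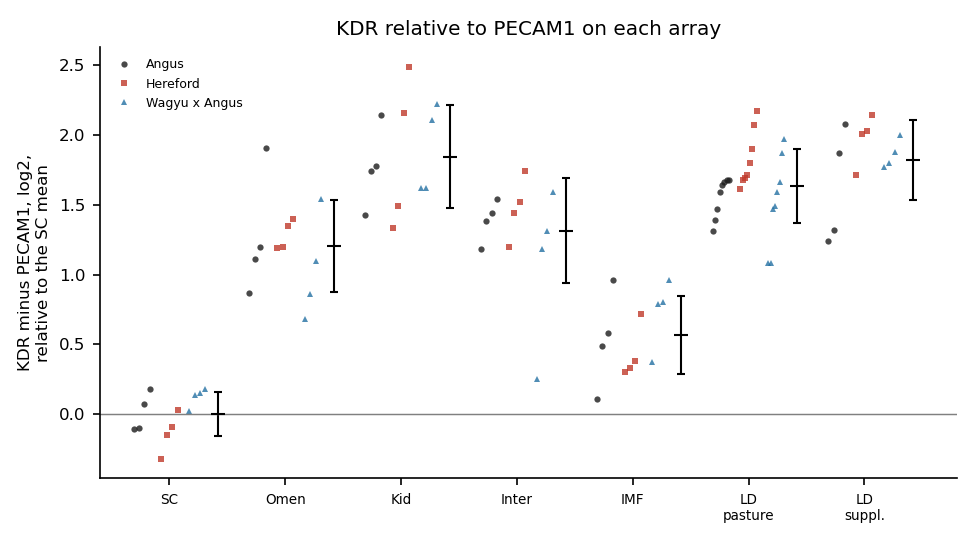
The log2 difference between KDR and PECAM1 on each array, relative to the SC mean (y axis), is plotted by tissue (x axis) with breed as colour and shape, and the bar gives mean and SD. Each gene is read on its brightest probe. SC arrays lie between -0.32 and 0.19 and all Kid arrays at or above 1.33, and IMF runs from 0.11 to 0.96, so that its lowest arrays overlap SC.

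LD, the muscle with its fat in place, was lower than SC for all 9 genes on the 24 pasture arrays, where 82.9% of all probes were called, 40.2% lower and 42.7% higher. PECAM1 fell by 2.36 ± 0.1, a 5.14-fold difference (adjusted p = 1.92e-22 by limma). ROBO4 fell by 2.24 ± 0.13 and CLDN5 by 2.23 ± 0.11, followed by ESAM (1.66 lower), CDH5 (1.63 lower), TIE1 (1.44 lower) and TEK (1.32 lower). EMCN fell by 0.85 ± 0.11 and KDR by 0.73 ± 0.13 (adjusted p = 5.25e-06). The second ROBO4 probe was higher in LD by 2.31 (adjusted p = 4.23e-17), so with that probe 8 of the 9 genes were lower and 1 higher. By the main probes the arrays overlapped for EMCN, KDR and TIE1, and the other 6 genes had no overlap, as did 39.1% of all probes. Genes of adipocytes and macrophages were also lower in LD, 8 of 8 each, with median differences of -5.35 and -3.42, adipocyte sums of 10.9 to 98.6 and macrophage sums of 4.27 to 16.4, against 652 to 992 and 45.2 to 228 in SC. All 10 myofibre genes were higher, and the part of these cells in the lower endothelial values was not tested. With the supplement arrays as LD in place of pasture, KDR was no longer called, at -0.17 (adjusted p = 0.172).

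IMF was higher than LD on pasture for all 9 genes, where 75.3% of all probes were called, 36% higher and 39.3% lower. PECAM1 rose by 1.84 ± 0.11, a 3.57-fold difference (adjusted p = 1.31e-16 by limma), and TEK by 1.47 ± 0.1 (adjusted p = 6.14e-16), both without overlap, as for 19.5% of all probes. TIE1 differed by 1.25 ± 0.14, CLDN5 by 1.12 ± 0.13 and ROBO4 by 0.92 ± 0.14. The second ROBO4 probe was lower in IMF than in LD, at -1.01 (adjusted p = 3.12e-05), so with that probe 8 of the 9 genes were higher and 1 lower. CDH5 had the smallest difference, 0.54 ± 0.13 (adjusted p = 0.00036). Against the supplement arrays CDH5 differed by 0.01 (adjusted p = 0.951) and KDR by 0.21 (adjusted p = 0.225). Within scan day 3, with 12 IMF and 8 LD arrays, 9 of 9 genes were higher in IMF, by a median of 1.22. Adipocyte genes (8 of 8) and macrophage genes (7 of 8) were higher in IMF than in LD as well, by medians of 4 and 1.38, all 10 myofibre genes were lower (median -1.38), and their part in the difference was not tested. Fibroblast genes were also higher, by 1.13 (PDGFRA) to 1.95 (COL3A1). Mural genes were higher by 0.96 (PDGFRB) to 3.61 (CNN1), except KCNJ8, which was lower (-0.21). The part of these cells was not tested either. In Hereford alone CDH5 (0.25, adjusted p = 0.21) and EMCN (0.56, adjusted p = 0.0786) were not called.

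The effect of diet after weaning can be seen in LD only. With supplement, 5 of the 9 endothelial genes were higher than on pasture and none was lower, where 7.2% of all probes were called, 3.45% higher and 3.74% lower. Among these 5, KDR was called on 1 of its 2 probes and CDH5 on 3 of its 4. KDR rose by 0.55 ± 0.14 (12 against 24 arrays, adjusted p = 0.0124 by limma) and CDH5 by 0.54 ± 0.13 (adjusted p = 0.012). ESAM rose by 0.47 ± 0.12 (adjusted p = 0.0178), CLDN5 by 0.43 ± 0.12 (adjusted p = 0.0208) and PECAM1 by 0.37 ± 0.1 (adjusted p = 0.0218). TIE1 differed by 0.47 ± 0.16 (adjusted p = 0.0646), ROBO4 by 0.37 ± 0.14 (adjusted p = 0.0909), EMCN by 0.22 ± 0.12 (adjusted p = 0.267) and TEK by 0.21 ± 0.09 (adjusted p = 0.141). All 9 genes overlapped between the diets, as did all probes (0% without overlap), and their median difference was 0.43 against 0.01 over all probes.

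Slide and scan day bear on this comparison directly. Each breed of the supplement group was hybridised on 1 slide of its own, 8 of these arrays were scanned on day 1 and 4 on day 2, and the pasture arrays were spread evenly over the 3 days. With scan day as a block no gene was called by limma (7 had an unadjusted p under 0.05, and the lowest adjusted p was 0.0997), and 698 of the 34227 probes were, against 2463 without the block. With scan day and breed together in the fit, an alternative chosen after seeing the data, 7 of the 9 genes were called higher (lowest adjusted p 0.00615) and 2306 probes in all. With slide as a random block none was called either (4 had an unadjusted p under 0.05, and the lowest adjusted p was 0.612), nor was any of the 34227 probes. Within scan day 1 (8 against 8 arrays) 9 of 9 genes were higher with supplement, by a median of 0.28, and within scan day 2 (4 against 8) 9 of 9, by a median of 0.31. On day 2 the supplement arrays were all Angus and the pasture arrays Angus and Hereford, so breed was unequal there. The median was 0.63 for the Angus arrays, 0.38 for Wagyu x Angus and 0.29 for Hereford, and in Hereford alone no gene was called by limma, with 2 at an unadjusted p under 0.05. Kill, which the labels do not give, and diet cannot be told apart. Genes of adipocytes went the other way, with 3 of 8 lower with supplement and sums of 8.92 to 27.8 against 10.9 to 98.6 on pasture. Of 5 fibroblast genes COL1A1 was higher (0.88), of 8 mural genes KCNJ8 was lower (-0.32), and the part of these cells in the difference was not tested.

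Breed was called for endothelial genes in LD and for none in fat, and the difference between LD and fat in this was not tested. On the 24 LD pasture arrays 6 of the 9 genes were called for breed, where 14.7% of all probes were called, with adjusted p by limma of 0.00467 for CDH5, 0.00639 for ESAM, 0.0117 for KDR, 0.0184 for EMCN, 0.0223 for TIE1 and 0.0368 for ROBO4. CDH5 gave lowest, median and highest values of 0.87, 1.11 and 1.7 in Hereford, 0.41, 0.65 and 0.97 in Wagyu x Angus and 0.01, 0.41 and 1.06 in Angus, with 8 arrays in each. ESAM gave 0.76, 1.17 and 1.55 in Hereford, 0.28, 0.63 and 1.02 in Wagyu x Angus and 0.16, 0.47 and 0.77 in Angus. KDR gave -0.66, -0.51 and 0.01 in Hereford, -1.46, -1.17 and -0.63 in Wagyu x Angus and -1.48, -0.89 and -0.52 in Angus. Hereford had the highest median of all 3 genes, and the ranges of the breeds overlapped.

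Against Angus, Hereford was higher for 5 genes, where 8.78% of all probes were called and 3.97% were higher. This count is by the main probes. CDH5 was called higher on 2 of its 4 probes, CLDN5 on 1 of 3 and KDR on 1 of 2. CDH5 rose by 0.77 ± 0.14 (adjusted p = 0.00272 by limma), TIE1 by 0.7 ± 0.17 (adjusted p = 0.0137), ESAM by 0.68 ± 0.13 (adjusted p = 0.00415), KDR by 0.57 ± 0.15 (adjusted p = 0.022) and CLDN5 by 0.43 ± 0.13 (adjusted p = 0.0474). Against Hereford, Wagyu x Angus was lower for 6 genes, where 10.8% of all probes were called and 6.09% were lower. Here too CDH5 was called on 2 of its 4 probes. KDR fell by 0.69 ± 0.15 (adjusted p = 0.0111), ROBO4 by 0.6 ± 0.16 (adjusted p = 0.0251, while its second probe rose by 0.6, adjusted p = 0.048), CDH5 by 0.55 ± 0.14 (adjusted p = 0.0168), ESAM by 0.55 ± 0.13 (adjusted p = 0.0149), EMCN by 0.47 ± 0.11 (adjusted p = 0.0149) and PECAM1 by 0.39 ± 0.12 (adjusted p = 0.0415). No gene differed between Wagyu x Angus and Angus by limma, 1 had an unadjusted p under 0.05, and 1.72% of all probes were called.

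Scan day was also unequal between the breeds, with Angus on days 2 and 3, Hereford on days 1 and 2 and Wagyu x Angus on days 1 and 3. With scan day as a block CDH5, ESAM, TIE1 and EMCN were called by limma (adjusted p 0.0141 to 0.0447), and KDR (0.0673) and ROBO4 (0.133) were not. The breeds lie mostly on different slides (slides 13 and 14 hold both Hereford and Wagyu x Angus pasture arrays, and no slide holds Angus LD with another breed), and with slide as a random block no gene was called for breed by limma (5 had an unadjusted p under 0.05, and the lowest adjusted p was 0.4). On the 12 supplement arrays, with 4 per breed and each breed on its own slide, 1 gene was called over the 3 breeds, TIE1, which was higher in Hereford than in Angus by 0.89 (adjusted p = 0.0151), where 25.1% of all probes were called and 13.8% were higher. Between Wagyu x Angus and Angus on these arrays ROBO4 was called lower, at -0.6 (adjusted p = 0.035), where 19.7% of all probes were called and 8.62% were lower. The second ROBO4 probe was not called lower there. Adipocyte genes were lower in Hereford than in Angus LD on pasture for 4 of 8. Called higher in Hereford, as the endothelial genes were, were 1 of 8 mural genes (RGS5, 0.53), 1 of 5 fibroblast genes (COL1A1, 1.01), 1 of 2 platelet genes (PF4, 1.02), 1 of 4 mesothelial genes (MSLN, 0.9) and 2 of 10 myofibre genes (CKM, 0.31, and TTN, 0.28). The part of these cells in the breed difference was not tested. Over the 60 fat arrays no endothelial gene was called for breed by limma (adjusted p 0.353 to 0.875, 0 with an unadjusted p under 0.05, 3.2% of all probes called). Arrays of the same steer count as separate in this test, so its p-values are too small if steers differ. In the interaction of depot with breed none of the 9 genes was called by limma (adjusted p 0.664 to 0.934, 3 with an unadjusted p under 0.05, TEK, PECAM1 and ESAM, and 0% of all probes called). In the interaction of diet with breed in LD none of the 9 was called either (adjusted p 0.054 to 0.872, 2 with an unadjusted p under 0.05, 16.2% of all probes called), with EMCN nearest to the threshold.

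**Figure D4:**
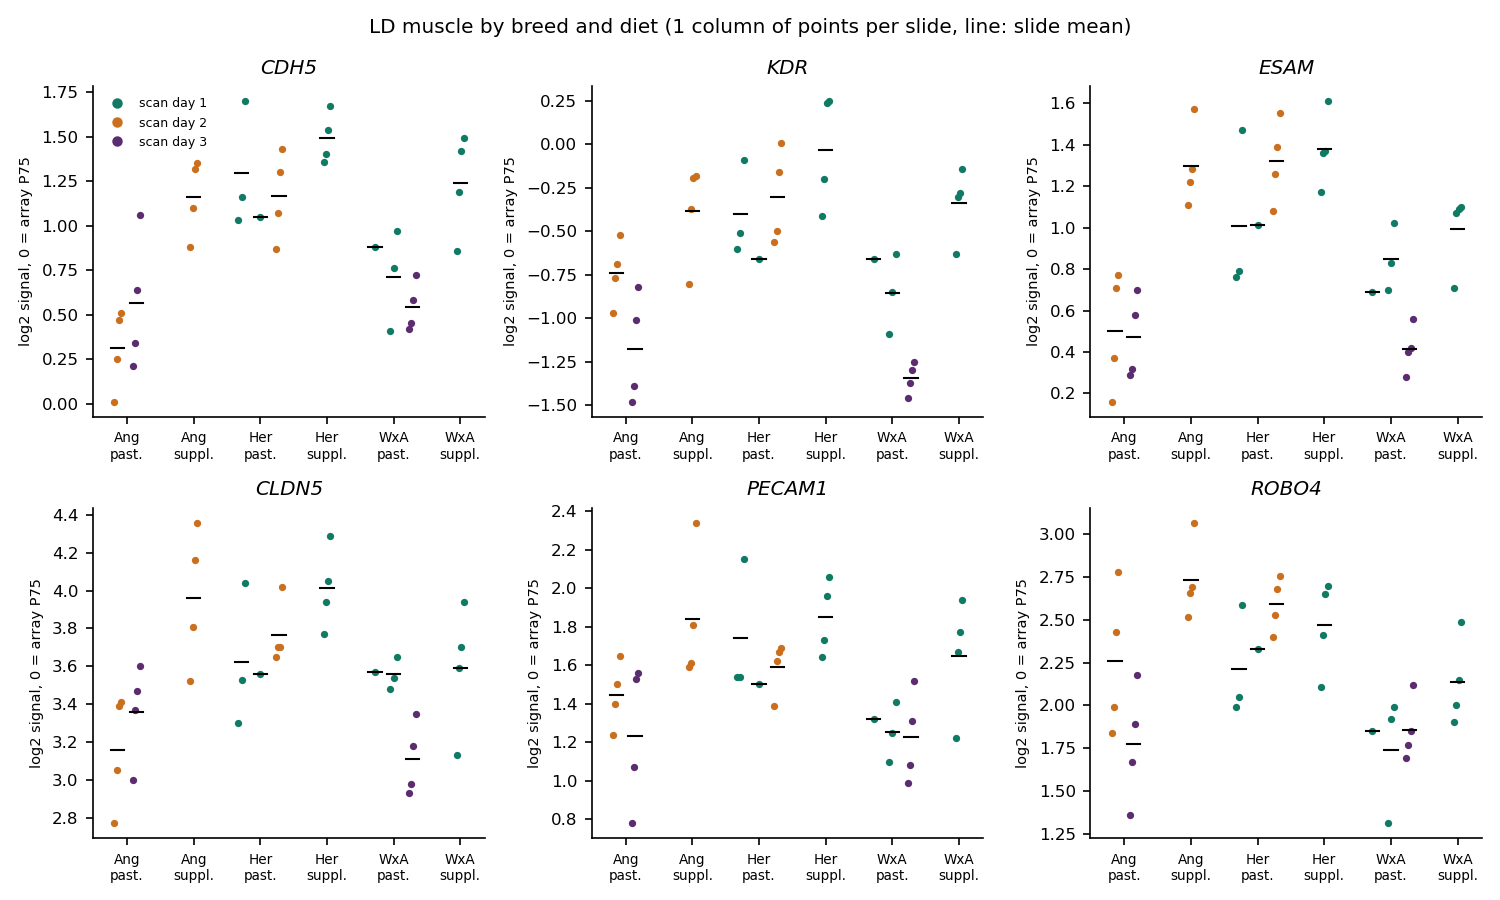
Values of 6 endothelial genes in LD (y axis, log2 signal with 0 at the 75th percentile) by breed and diet (x axis; Ang Angus, Her Hereford, WxA Wagyu x Angus, past. pasture, suppl. supplement), with 1 column of points per slide, the slide mean as a line and the scan day as colour. Hereford has the highest median of the pasture groups for CDH5, KDR and ESAM, with single arrays that overlap the other breeds, and each supplement group is a single slide.

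Of 38 further pan-endothelial genes, 30 were measured. The shares of all probes given above for each comparison are repeated in brackets, and a count near them says nothing particular to the list. In Omen 14 of the 30 were higher than in SC and 3 lower (all probes 20.5% and 25.2%), with a median of 0.21, led by the water channel AQP1 (1.52) and GIMAP4 (1.51) and, on the lower side, by the transcription factor SOX18 (-0.54) and CD34 (-0.45). In Kid 10 were higher and 3 lower (all probes 19.4% and 22.2%), with a median of 0.2, and with GIMAP4 (1.37) and the nitric oxide synthase NOS3 (1.33) highest and CD34 (-1.11) and CD93 (-0.78) lowest. In Inter 10 were higher and 4 lower (all probes 21.6% and 27.2%), with a median of -0.04, and with PROCR, the protein C receptor (2.87), and MMRN1 (1.99) against SOX18 (-0.67) and CD93 (-0.59).

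In IMF 8 of the 30 were higher than in SC and 16 lower (all probes 31.2% and 33%), with a median of -0.36. The kinase BMX (2.62) and AQP1 (2.17) were the most raised, and the scavenger receptor STAB1 (-1.14) and the leukocyte adhesion molecule ICAM1 (-1.13) the most lowered. In LD 2 were higher than in SC and 23 lower (all probes 42.7% and 40.2%), with a median of -1.52, from PALMD (1.34) and MMRN1 (0.98) to ICAM1 (-3.58) and the selectin SELP (-2.76), and 26 were higher in IMF than in LD with 1 lower (all probes 36% and 39.3%), with a median of 1.23. With supplement 6 were higher in LD and none lower (all probes 3.45% and 3.74%), with a median of 0.21 and with the apelin receptor APLNR (0.89) and CD93 (0.72) highest, and 11 were called for breed in LD (all probes 14.7%). With slide as a random block no probe was called for diet. The part of other cells in the differences of these 30 genes was not tested.

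**Figure D5:**
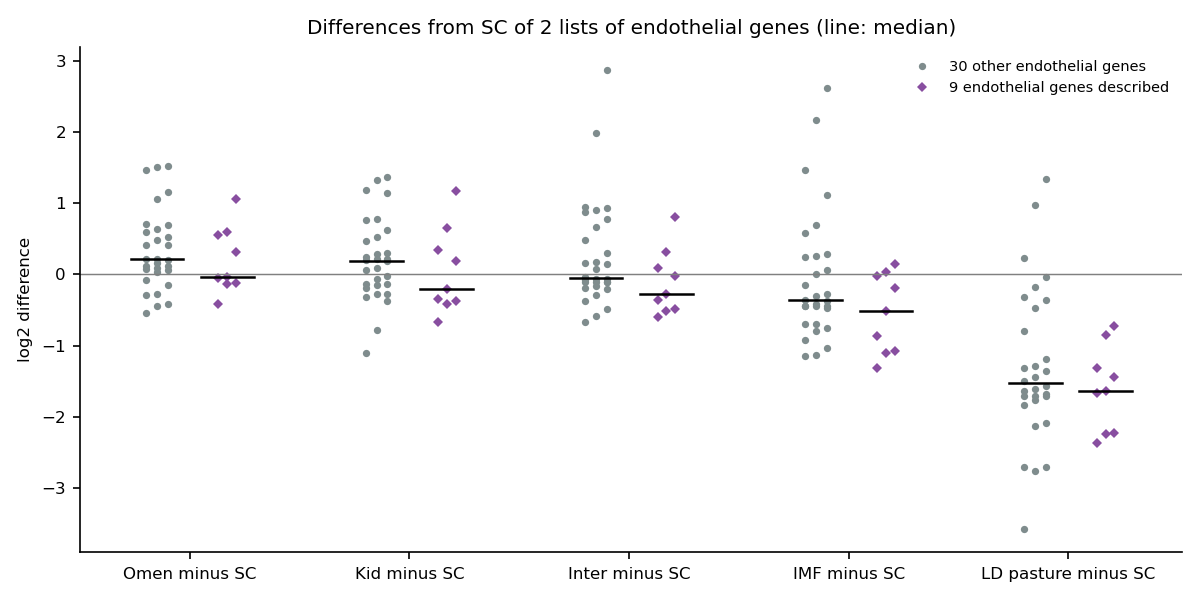
Log2 differences from SC (y axis) of the 30 other endothelial genes and of the 9 genes described here are plotted for each depot and LD on pasture (x axis), with a line at each median. The medians of the 30 genes run from 0.21 in Omen to -0.36 in IMF and -1.52 in LD, and single genes spread over several log2 units.

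Of 20 genes of the VEGF, angiopoietin and SLIT systems, the ligands and receptors of vessel growth, 17 were measured. The counts in the next lists are to be read against the same shares of all probes, 20.5% higher and 25.2% lower in Omen, 19.4% and 22.2% in Kid, 21.6% and 27.2% in Inter, 31.2% and 33% in IMF, 42.7% and 40.2% in LD, and 3.45% and 3.74% with supplement, and several lie near them. In Omen 7 were higher than in SC and 7 lower, with the guidance ligand SLIT2 at 3.89 and the lymphatic growth factor VEGFC at 1.98, against VEGFD at -0.88 and the co-receptor NRP2 at -0.78. In Kid 6 were higher and 4 lower, with VEGFC at 1.77 and SLIT2 at 1.5, against NRP2 at -0.72 and NRP1 at -0.71. In Inter 3 were higher and 7 lower, with the placental growth factor PGF at 1.17 and the receptor FLT1 at 1.08, against NRP2 at -0.86 and the netrin receptor UNC5B at -0.58. In IMF 5 were higher and 9 lower, with SLIT2 at 1.37 and FLT1 at 0.95, against NRP1 at -1.22 and VEGFD at -1.18.

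In LD 4 of these 17 genes were higher than in SC and 10 lower. With supplement 3 were higher in LD and none lower: VEGFA, the main ligand of KDR (0.88), the angiopoietin ANGPT2 (0.48) and NRP1 (0.28). As for the endothelial genes, none of these diet calls held with slide as a random block.

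Genes of arterial and venous identity and of Notch signalling, 11 of 13 measured, were higher than in SC for 4 in Omen with none lower, among them the arterial connexin GJA5 (1.08) and the Notch ligand DLL4 (0.9). GJA5 was also the most raised in Kid (1.17, 3 higher and 2 lower) and in Inter (0.82, 3 higher and 2 lower). In IMF 2 were higher, GJA5 (2.56) and the venous regulator NR2F2 (0.77), and 6 lower, led by the chemokine receptor ACKR1 (-1.01) and NOTCH4 (-1). In LD 9 of the 11 were lower than in SC and none higher, and with supplement EPHB4 (0.42) and NOTCH4 (0.3) were higher. These diet calls too were lost with slide as a random block. Lymphatic genes, 5 of 6 measured, were higher for 4 in Inter, with PROX1 at 1.93 and LYVE1 at 1.9, and for 2 in Omen, 2 in IMF and 1 in Kid, where 2 were lower. PROX1, which muscle fibres also express, was the most raised in IMF (3.68) and in LD (3.93). In LD RELN was also higher (0.55), whereas LYVE1 (-1.96) and PDPN (-0.97) were lower.

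Markers of other cells were read in the same way. Of the mural genes of pericytes and vascular smooth muscle, 8 of 10 measured, IMF had 5 higher and 2 lower than SC, with the smooth muscle genes CNN1 (4.1) and MYH11 (3.85) most raised and PDGFRB (-1.06) and KCNJ8 (-0.27) lowered. The summed level of the 8 genes was 81.4 to 850 in IMF and 18.8 to 295 in SC, where 1 array stood apart. Omen had 3 mural genes lower, Kid 1 higher and 2 lower, Inter 2 lower and LD 3 lower. Fibroblast genes were lower than in SC for 5 of 5 in IMF, Omen and LD, 4 in Kid and 2 in Inter. Macrophage sums were 9.91 to 49 in IMF and 45.2 to 228 in SC, and 2 macrophage genes were higher in Inter with 1 lower, 1 higher and 1 lower in Kid and 1 lower in Omen. Adipocyte sums were 172 to 645 in IMF and 652 to 992 in SC, with 3 of 8 genes lower and 1 higher in Inter and in Omen, and 2 lower in Kid.

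Blood and lining cells were covered by few probes. Of the platelet genes, which share markers with endothelium, 2 of 6 were measured, and ITGA2B was lower than in SC in all 4 other depots and in LD, by 0.25 to 0.77. The platelet chemokine PF4 was lower in IMF by 1.43 and in LD by 2.74, and was not called in Inter (-0.42), Omen (-0.19) or Kid (0.6). Of 3 erythrocyte genes measured none was called in IMF, Inter or Omen, and HBB was higher (1) and HBA lower (-0.56) in Kid. Of 4 mesothelial genes measured, MSLN was higher in Omen (3.02), with 2 lower there, and 3 were lower in Kid and in Inter. The part of these cells in the endothelial values was not tested.

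Over the 96 arrays, the genes most like the mean of the 9 endothelial genes were ERG, the ETS factor of endothelium (r = 0.975), PKP4 (0.969), JAM2 (0.968), F11R (0.967), EPB41L4A (0.965), PALM2 (0.963), PTPN12 (0.962), ADGRG1 (0.962), ACVRL1, the endothelial receptor for bone morphogenetic proteins (0.959), and CTNND1 (0.959), out of 10644 genes ranked by Pearson r. JAM2 and F11R are junctional adhesion molecules. These arrays share tissues, slides and scan days, and after the mean of each of the 21 groups was taken off, r was 0.62 to 0.843. Among the 9 genes themselves, the 36 pairs had r of 0.678 to 0.941 over the arrays with a median of 0.858, and 0.32 to 0.726 with a median of 0.635 after the group means were taken off. These correlations are descriptions.

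Other probes of the same genes mostly moved in the same direction, with exceptions. PECAM1 had a second probe, which was lower in IMF by 1.01 and in Omen by 0.57 (adjusted p = 0.000968 by limma). The other CLDN5 probes fell in IMF by 1 and 0.84. The main CDH5 probe is named by the study's tables alone, and 3 other probes carry a CDH5 accession. The first of these was lower than SC in all 4 depots, by 1.31 in IMF (adjusted p = 2.64e-09), 0.71 in Inter (adjusted p = 0.00011), 0.55 in Kid (adjusted p = 0.0126) and 0.43 in Omen (adjusted p = 0.014). The next differed by -0.2 in IMF (adjusted p = 0.145) and 0.22 in Kid (adjusted p = 0.201), and rose in Inter by 0.28 (adjusted p = 0.0454) and in Omen by 0.38 (adjusted p = 0.0228). The last differed by -0.16 in IMF (adjusted p = 0.49) and -0.1 in Omen (adjusted p = 0.586), and fell by 0.46 in Inter (adjusted p = 0.0253) and 0.41 in Kid (adjusted p = 0.0318). Whether CDH5 was called in IMF (2 of the 4 probes), Inter, Kid and Omen, and in Omen and Inter its direction, therefore depends on the probe. The second KDR probe, above background on 17 of the 24 LD pasture arrays, differed from SC by -0.07 in Inter, 0.24 in Kid and 0.25 in Omen, none of them called, so the higher KDR of these depots was seen on the brighter probe alone. EMCN was higher in Omen on both of its probes, by 0.6 and 0.61.

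The second ROBO4 probe ran opposite to the first. It gave -2.89, -2.52 and -2.18 in SC, -2.58, -1.14 and -0.22 in IMF and -0.94, -0.18 and 0.74 in LD on pasture, so that it was higher in IMF by 1.3 (adjusted p = 1.25e-05 by limma) and in LD by 2.31. In Inter both probes were lower, the second by 0.46. The direction of ROBO4 in IMF and LD therefore depends on the probe. The probe that the study's tables name VWF, after the von Willebrand factor stored by endothelium and platelets, carries the accession of DNAJC19, a mitochondrial import protein. Over the 96 arrays it had r = 0.998 with the other DNAJC19 probe and -0.784 to -0.897 with the 9 endothelial genes, and it was higher in IMF by 0.7 (adjusted p = 0.000116) and in LD by 1.95. Its values were therefore not counted among those of the endothelial genes.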

How the data were processed

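The authors deposited the Agilent Feature Extraction 10.7.3.1 output of each array and, for 34227 probes, log2 values. The processed signal they deposited is a linear intensity after background subtraction, and the log2 value equals log2 of the median spot signal minus median local background. Outlier spots and control probes were left out, spots of a probe were averaged, and log2 intensity was set against the 75th percentile of each array. No spot was saturated. The number of arrays and their signal over background limit the precision. Probes were named by RefSeq accession (19903) or by the study's tables (4441), 21445 in all. Groups were fitted with limma 3.58.1 in R 4.3.3, with the package data.table (1.17.8). Figures used Python 3.11.15 with numpy 2.4.6, pandas 2.3.3 and matplotlib 3.10.9. The procedure was tested on simulated data.

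The genes and lists were chosen with earlier results of these data known. From each list up to 2 genes with the largest positive and 2 with the largest negative called difference are named. Replicate numbers equal the position on the slide for 96 of 96 arrays and mark no animal. The mixed model of the methods was not repeated. The normexp alternative used the median signals. Kill is not in the labels. Promoter sequences were not analysed here.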

Additional observations from a re-analysis of the deposited data

Results flagged for a closer look

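Within groups of 4 to 8 arrays, 12 of 189 combinations of gene and group (6.35%) held an array whose gap to its neighbour was large for the range of the group by Dixon's test, and chance flags about 1 in 20. PECAM1 was 2.15 on an LD Hereford pasture array (replicate 4, slide 13; the others 1.39 to 1.69), 4.04 on an SC Angus array (replicate 1, slide 17; others 3.44 to 3.5) and 3.67 on an SC Hereford array (replicate 3, slide 15; others 4.17 to 4.19). CDH5 was 2.79 on an Inter Angus array (replicate 3, slide 4; others 1.86 to 2), 2.3 on an Inter Wagyu x Angus array (replicate 2, slide 3; others 1.74 to 1.81) and 2.5 on a Kid Hereford array (replicate 3, slide 22; others 1.69 to 1.77).

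TEK was 2.09 on an Inter Hereford array (replicate 3, slide 3, others 1.58 to 1.66), 0.26 on an LD Wagyu x Angus pasture array (replicate 4, slide 20, others -0.26 to -0.1) and 2.35 on an Omen Angus array (replicate 3, slide 19, others 1.39 to 1.54). ESAM was 0.71 (others 1.07 to 1.1) and EMCN 0.24 (others 0.66 to 0.72) on the same LD Wagyu x Angus supplement array, replicate 2 on slide 6. ROBO4 was 2.46 on an IMF Angus array (replicate 1, slide 18, others 3.11 to 3.24).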

How the results depend on the processing

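The number of the 9 endothelial genes called stayed at 8 to 9 in LD minus SC, 7 to 9 in IMF minus LD and 8 to 9 for depot over the fat arrays under the alternatives tried. KDR was lost in LD minus SC, and CDH5 and KDR in IMF minus LD, with supplement arrays as LD, CDH5 and EMCN in IMF minus LD in Hereford alone, and TIE1 for depot with scan day or slide as a block. Breed over the fat arrays and depot by breed stayed at 0 called in limma under each. Of the single gene values, 1379 of the alternatives kept the side of the threshold, 95 lost it, 28 gained it and 1 turned, TIE1 in Inter minus SC, at 0.19 with scan day in the fit over all 96 arrays, where 3 genes were called. The number called moved by more than 1.5 times as follows, and the cause was not tested. For IMF minus SC it was 2 with scan day as a block. For Inter minus SC it was 1 in Angus and 1 in Wagyu x Angus alone. For Kid minus SC it was 0 in Hereford alone (6 at an unadjusted p under 0.05), 5 with normexp, 5 with the replicate block and 6 with the spread from all 60 fat arrays. For Omen minus SC it was 0 in Angus alone (3 at an unadjusted p under 0.05), 1 in Hereford, 2 in Wagyu x Angus and 1 with scan day as a block. For supplement minus pasture it was 0 in Hereford alone, 2 in Wagyu x Angus alone, 3 with normexp, 0 with scan day or slide as a block and 1 with scan day over all 96 arrays. For breed in LD it was 0 with slide, or with scan day and slide together (chosen after seeing the data), as a block, and 1 on the supplement arrays. Within 1.5 times, diet had 7 with breed as a covariate and 7 with scan day and breed together. For diet by breed it was 1 with arrays centred on their mean.

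Leaving out each array in turn gave 5 to 5 called genes for IMF minus SC, 5 to 6 for Inter, 3 to 5 for Kid, 4 to 5 for Omen, 5 to 6 for diet, 5 to 7 for breed in LD and 0 to 0 for breed in fat. Kid minus SC reached 5 without Kid Angus replicate 2 on slide 21 or replicate 4 on slide 17, Kid Hereford replicate 3 on slide 22, Kid Wagyu x Angus replicate 4 on slide 21 or SC Angus replicate 1 on slide 19. Arrays with the same replicate number did not deviate together (median r 0.0108 over 326 pairs, -0.00692 over 970 pairs with other numbers), and the replicate block changed no other number called beyond 1.5 times. Normexp put the median of all probes at -0.23 in IMF minus SC, -0.28 in Inter, -0.25 in Kid, -0.26 in Omen, 0.12 in LD minus SC and -0.35 in IMF minus LD (from 0, -0.05, -0.01, -0.03, 0.05 and -0.04), and the share of called probes that were higher fell from 48.6% to 26.4%, 44.2% to 19.2%, 46.6% to 20.1%, 44.9% to 16.4% and, for IMF minus LD, 47.8% to 27.2%. Quantile normalization and mean centring put it at -0.11 and -0.13 in IMF minus SC, with 39.5% and 37.5% higher, and quantile at -0.15 in IMF minus LD. For diet the share was 48% and, with the authors' values, 73.4%. The equal-variance t-test of the methods called 5 genes in IMF minus SC after adjustment.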
